A study of Triticum aestivum with 3 samples.

Results

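Small RNAs whose names start with PC, in the 2 classes PC-3p and PC-5p, were examined as putative guides of transcript cleavage in wheat leaves. They were selected by name alone, from every line of the deposited degradome tables with such a small RNA. This gave 108 small RNAs, 54 PC-3p and 54 PC-5p, of the 1233 small RNAs in the tables. The tables do not spell out the abbreviation, but names of this form usually mark predicted candidates, small RNAs from a predicted hairpin with no entry under a registered microRNA name, and 3p and 5p name the arm of the hairpin. The leaf samples came from seedlings of wheat, Triticum aestivum, after 2 days in 3 treatments. These were a control, dithiothreitol (DTT), and DTT together with tauroursodeoxycholic acid (TUDCA). Each treatment had 3 libraries, described in the series design as independent biological replicates, which makes 9 in all, and the labels give no cultivar, dose or age of the seedlings. The question of the study was which transcripts are targeted by microRNAs under endoplasmic reticulum stress.

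Plant microRNAs are cut from one arm of a hairpin precursor and loaded into an Argonaute protein, which slices transcripts that pair closely with the small RNA. Slicing leaves a downstream fragment with a 5′ monophosphate, and degradome sequencing reads the 5′ ends of such fragments, although other decay of RNA leaves the same end. DTT reduces disulphide bonds and so disturbs protein folding in the endoplasmic reticulum, whereas TUDCA, a bile acid, serves as a chemical chaperone that eases such stress. A predicted candidate has weaker support than a registered microRNA, and degradome reads on a transcript are one form of evidence that a candidate guides cleavage. The values used here are the raw reads listed in the tables per small RNA and transcript pair. They carry no cleavage position, no small RNA abundance and no transcript abundance, so more slicing and more transcript cannot be told apart, nor can fewer cells carrying a transcript and less of it per cell. The leaf origin of the libraries could not be checked against marker transcripts for the same reason. The mature sequences of the PC small RNAs were not used here, and the transcripts are named by their IDs, none of which (0) matched the gene table used here.

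The 108 PC small RNAs were paired with 610 transcripts in 702 pairs. Lines holding the same reads, as when 1 small RNA was paired with near-identical transcripts, were merged and counted once, which left 376 PC degradome signals among 4574. Those 376 signals, 8.22% of the total, held 6481 of 55312 reads, or 11.7%. Library depth ranged from 11253643 to 13006162 reads, so that 1 read in a library was close to 1 read per 10M library reads, the scale of the levels given here. Wheat microRNA names (tae) were as many, 108, and gave 668 signals with 6120 reads. Most PC signals were sparse. The median was 2 reads over all 9 libraries, against 3 for all signals, and 134 signals (35.6%, against 29.9% of all signals) rested on a single read. At the other end, 49 signals (13.0%, against 15.5%) reached 10 reads or more, and 15 had reads in all 9 libraries.

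Reads were concentrated on very few signals. The strongest held 46.4% of all PC reads, the 2 strongest 61.5%, the 10 strongest 74.2% and the 50 strongest 87.3%. Among all signals of the series, PC small RNAs held 2 of the 10 strongest and 9 of the 100 strongest. Counted by small RNA, the median was 6 reads, 44 of the 108 reached 10 reads, 10 reached 100 reads, and 18 had a single read. In the plot of reads by rank, both classes fall from 1 dominant signal to a long tail of 1-read signals.

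**Figure D1:**
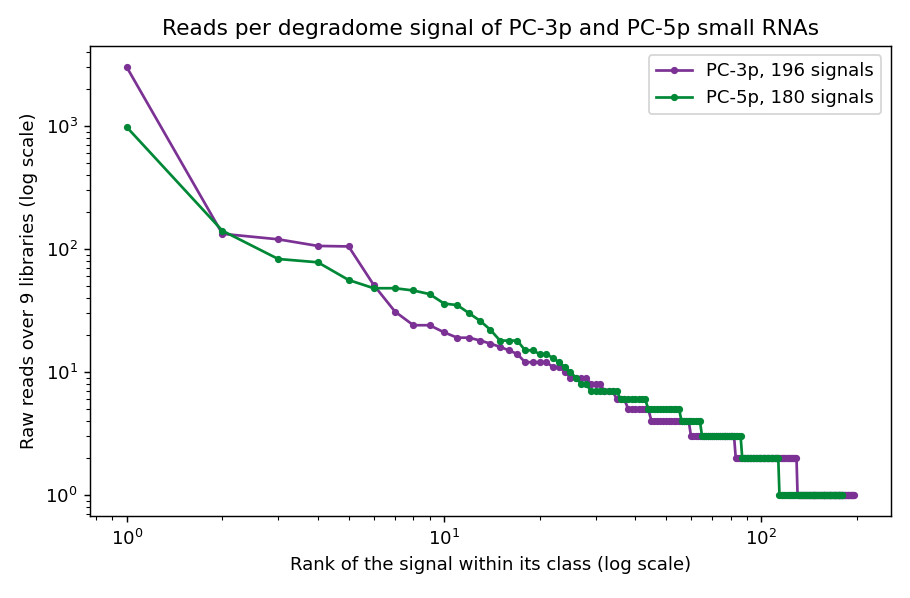
Reads per PC signal over all 9 libraries against its rank within PC-3p (196 signals) or PC-5p (180 signals), both axes on log scales. Each point is 1 signal; in both classes 1 signal stands far above the rest, at 3009 reads in PC-3p and 980 in PC-5p, and 67 signals in each class rest on 1 read.

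The PC-3p class held 4246 reads in 196 signals and the PC-5p class 2235 reads in 180 signals. That gap came down to 1 signal in each class. The strongest signal held 70.9% of the PC-3p reads and 43.8% of the PC-5p reads, and without them 1237 PC-3p and 1255 PC-5p reads remained. The classes were alike in other counts. Each had 67 signals of a single read, 24 PC-3p and 25 PC-5p signals reached 10 reads, and the median small RNA was paired with 4 and 3.5 transcripts. PC-5p signals were the more often seen throughout, with 10 in all 9 libraries against 5 for PC-3p. No signal (0) was shared between the classes, and 6 transcripts were paired with a small RNA of each.

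The transcripts of the 2 classes differed in the kind of ID they carried. Of the PC-3p transcripts, 66 of 331 (19.9%) had IDs starting with EPlTAEG, against 0 of 285 for PC-5p, 51.9% for the wheat-named microRNAs and 12.8% of all transcripts. Nearly all of these came from a pair of small RNAs, PC-3p-168457_12 with 34 and PC-3p-103864_22 with 31, and PC-3p-177259_11 had 3, some of them in common. Transcripts with IDs of the form Novel12989 made up 56 (16.9%) of the PC-3p and 68 (23.9%) of the PC-5p transcripts, close to or above the 16.7% over all transcripts. Their reads were distributed the other way, since these transcripts held 80.9% of the PC-3p reads and 17.6% of the PC-5p reads. The strongest PC-3p signal lies on such a transcript and the strongest PC-5p signal does not.

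Where the transcript ID names a chromosome arm of hexaploid wheat, the 3 subgenomes were evenly represented. Of 423 such PC transcripts, 136 (32.2%) were on subgenome A, 155 (36.6%) on B and 132 (31.2%) on D, against 33.2%, 33.7% and 33.1% over all transcripts. For 35 of the 108 small RNAs, the transcripts included the same arm of A, B and D. Homeologous gene copies would give this pattern, but whether these transcripts are such copies was not tested. Reads shared by such copies are listed on each of them, and the deposited tables carry a normalized read number, the raw number divided by what is taken here as the number of places a read maps to. That divisor was 1 in 167 of the 702 PC pairs (23.8%), against 18.1% of all pairs, so most PC pairs hold reads that are shared with another place.

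Most transcripts of PC small RNAs were paired with no other class of small RNA. Of the 610 transcripts, 150 (24.6%) were also paired with a small RNA of another name, and these were 2.14% of the 7023 transcripts with other-named small RNAs. Few signals were listed under both kinds of name. There were 24 (10 PC-3p and 14 PC-5p) with 193 reads together, and 3 of them reached 10 reads. Counted over all PC signals, 18 were listed under more than 1 PC small RNA, and 69 transcripts were paired with more than 1, up to 4.

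The names themselves carry 2 numbers, and the last of them, which ranged from 2 to 4542 with a median of 15.5, falls almost exactly as the first rises (Spearman's rho -0.999 over 108 small RNAs). Across the 108, the last number had no visible relation to degradome reads (rho -0.003) or to the number of transcripts (rho 0.02), while small RNAs with more transcripts had more reads (rho 0.74). These are descriptions over small RNAs that share libraries and in part transcripts. The relation of transcripts to reads is in part built in, since reads were summed over the signals of each small RNA. PC-3p-491_4542, with the highest last number, had 7 reads, and PC-3p-846791_2, one of those with the lowest, had 150.

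The strongest signal of the whole series was that of PC-3p-103864_22 on Novel12989, with 3009 reads. In the control libraries 241, 365 and 290 reads were counted, in DTT 426, 294 and 185, and in DTT with TUDCA 333, 418 and 457. The 3 groups overlapped, and the DTT libraries held the lowest value, 185, as well as one above all controls, 426. Each of these reads had a divisor of 1, so on that reading of the divisor the signal maps to this transcript alone. PC-3p-103864_22 was paired with 44 transcripts in 28 signals, yet this signal made up 96.9% of its reads, and its next strongest held 12.

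Novel12989 carried other small RNA pairs as well. PC-3p-177259_11 had 120 reads there, with 10, 14 and 13 in the control, 11, 7 and 16 in DTT, and 14, 16 and 19 in DTT with TUDCA. The same 120 reads were listed for tae-MIR1122c-p3, so they cannot be credited to the PC name alone. Other names had far fewer reads on the transcript. There were 28 for tae-MIR1120c-p3_1ss16TA, 27 for tae-MIR1130b-p5_2ss15GA18GA and 13 for tae-MIR1130a-p3_1ss21TA.

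PC-5p-36288_69 gave the ninth strongest signal of the series, with 980 reads on Traes_7AS_CB60FA3AE, of which 973 were listed on Traes_4AL_4C3BBE546 too. The control libraries held 134, 142 and 75 reads, the DTT libraries 173, 35 and 36, and the DTT with TUDCA libraries 65, 158 and 162. The DTT group had both the highest library and the lowest ones, and all 3 groups overlapped. Control leaves had 96.1 ± 25.8 reads per 10M library reads, DTT leaves 64.4 ± 63.2, and leaves with both agents 100.5 ± 43.2 (mean ± SD, n = 3 each).

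**Figure D2:**
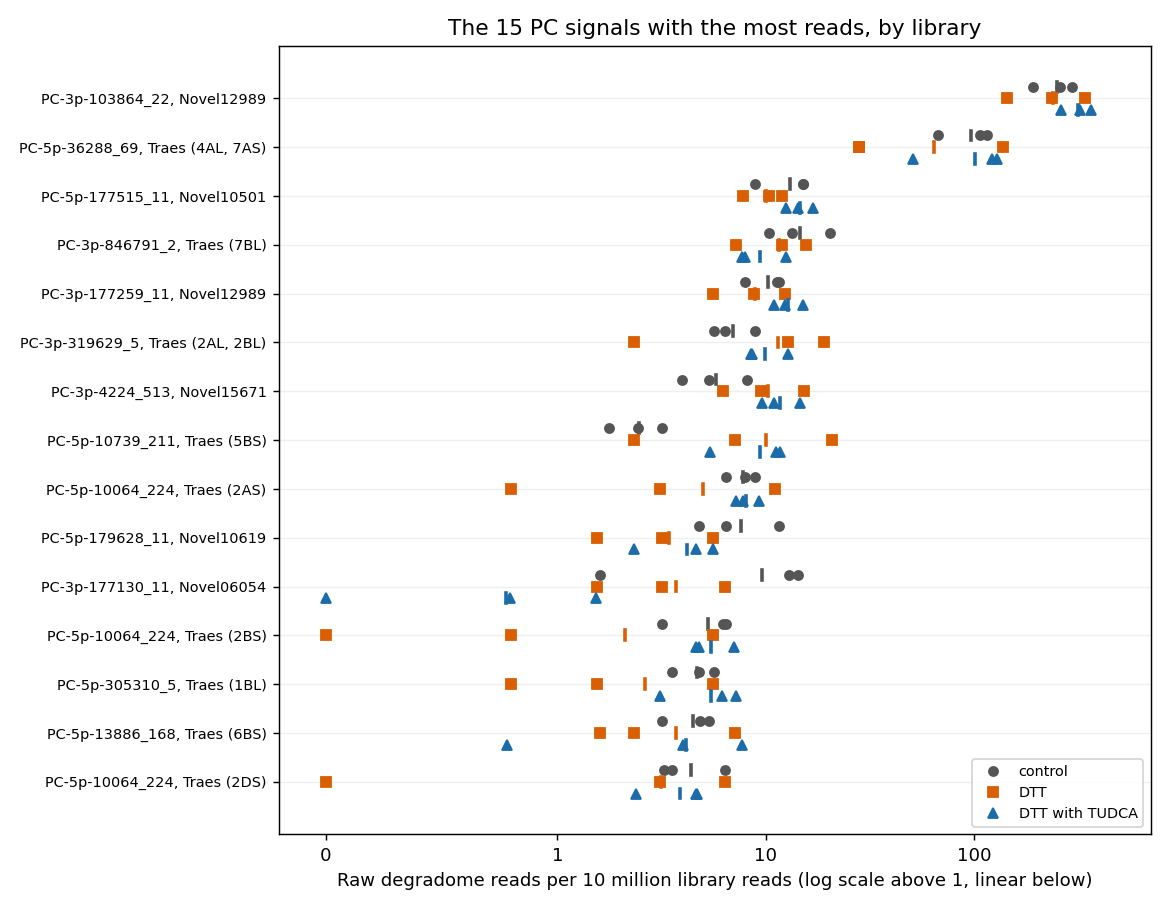
Reads per 10M library reads (log scale above 1, linear below) of the 15 PC signals with most reads. Points are the 9 libraries, coloured by treatment, and short vertical bars are group means; the first 2 signals lie far to the right of the others, and within most signals the points of the 3 treatments intermingle.

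From the third rank on, PC signals held 141 reads or fewer. PC-5p-177515_11 on Novel10501 had 19, 11 and 17 reads in the control, 13, 15 and 10 in DTT, and 16, 22 and 18 in DTT with TUDCA. PC-3p-846791_2 on Traes_7BL_24E462589 had 13, 25 and 15 in the control, 15, 9 and 20 in DTT, and 16, 10 and 10 in DTT with TUDCA. Both were present in every library at similar levels, and their control and DTT ranges overlapped.

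PC-3p-319629_5 was paired with a transcript on 2AL and one on 2BL that shared all of its 106 reads. It had 8, 7 and 10 reads in the control, 24, 16 and 3 in DTT, and 11, 11 and 16 in DTT with TUDCA. Its DTT libraries lay on both sides of the other groups. PC-5p-179628_11 on Novel10619 had 56 reads, with 6, 8 and 13 in the control, 7, 4 and 2 in DTT, and 3, 6 and 7 in DTT with TUDCA. PC-5p-305310_5 on Traes_1BL_714F4E4AC had 6, 7 and 4, then 7, 1 and 2, then 4, 8 and 9 reads in the same order of treatments. These groups overlapped as well.

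PC-5p-10064_224 gave 3 of the 15 strongest signals, on transcripts of 2AS, 2BS and 2DS, the same arm in each subgenome. On Traes_2AS_D26D32A7C it had 10, 8 and 10 reads in the control, 14, 1 and 4 in DTT, and 10, 12 and 9 in DTT with TUDCA. On Traes_2BS_F10DFB01C the reads were 4, 8 and 7, then 7, 1 and 0, then 9, 6 and 6. On Traes_2DS_5814764C5 they were 8, 4 and 4, then 8, 0 and 4, then 6, 6 and 3. The divisors of all 3 exceeded 1, so some of their reads may be listed more than once, in the sum over the small RNA as well; which other places hold them was not tested. In each of the 3 signals DTT replicate 1 stood above the other DTT libraries. Summed over the small RNA, control leaves had 18.6 ± 2.59 reads per 10M, DTT leaves 11.3 ± 11.4, and leaves with both agents 19.0 ± 1.39 (mean ± SD, n = 3).

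PC-5p-13886_168, PC-5p-7791_284 and PC-5p-86711_27 were listed with the same 46 reads on Traes_6BS_B6C664401, counted here as 1 signal. It had 4, 6 and 6 reads in the control, 9, 2 and 3 in DTT, and 1, 10 and 5 in DTT with TUDCA. The transcript also had reads under names from other species, 21 for ath-MIR5655-p3_2ss15AC17GT and 10 for gra-MIR482d-p3_2ss15AT17AT, with a different distribution over the libraries.

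Among the small RNAs with most transcripts, reads differed widely at like breadth of pairing, though each lay above the median of 6 reads per small RNA. PC-5p-97535_24 and PC-5p-86711_27 were paired with 44 transcripts each, as was PC-3p-103864_22, but gave 129 and 111 reads. The strongest signal of PC-5p-97535_24 had 30 reads on transcripts of 2AL, 2BL and 2DL, with 3, 4 and 2 in the control, 5, 6 and 5 in DTT, and 2, 2 and 1 in DTT with TUDCA. Its DTT libraries were above all others, at levels of 4.21 ± 0.503 against 2.47 ± 0.732 for the control and 1.30 ± 0.435 with both agents. The signal had too few reads to be tested. The next signal of this small RNA, with 26 reads on Novel05930, went the other way. There the DTT levels were all below the controls, at 1.31 ± 0.884 against 2.76 ± 0.430, and this was not tested either. Levels summed over PC-5p-97535_24 were 11.95 ± 3.50 in the control, 12.89 ± 2.78 in DTT and 9.62 ± 2.85 with both agents. PC-3p-168457_12 had 36 transcripts, 34 of them with EPlTAEG IDs, and 34 reads, of which its strongest signal held 6. PC-5p-63231_39 had 21 transcripts and 51 reads.

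Among signals listed under both a PC and another name, 3 had 10 reads or more. Beside PC-3p-177259_11 these were PC-5p-14669_160, with the same 18 reads as tae-miR9772 on 6AS and 6BS transcripts, and PC-3p-742312_2, with the same 15 reads as tae-MIR9672a-p3_1ss3GA and tae-MIR9672b-p3_1ss3GA on Novel06867, Novel08166 and Novel15671. PC-5p-14669_160 had 4, 3 and 2 reads in the control, 1, 0 and 0 in DTT, and 5, 3 and 0 in DTT with TUDCA. PC-3p-742312_2 had 1, 0 and 0 in the control, 0, 2 and 0 in DTT, and 1, 9 and 2 in DTT with TUDCA. Most reads of the latter lay in 1 library, DTT with TUDCA replicate 2.

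Taken as a class, PC small RNAs had 488, 631 and 562 reads per 10M in the 3 control libraries, 725, 474 and 340 in DTT, and 541, 680 and 745 in DTT with TUDCA. The group levels in that order were 560.3 ± 71.5, 512.9 ± 195 and 655 ± 104 (mean ± SD, n = 3). The DTT libraries spread from the lowest to nearly the highest value, and the groups overlapped. PC-3p levels were 357 ± 64.2, 344 ± 118 and 431 ± 55.8, and PC-5p levels 204 ± 14.6, 168 ± 79.3 and 224 ± 50.1, in the order control, DTT, DTT with TUDCA. Without its strongest signal, each class stood closer together, at 108 ± 12.4, 106 ± 21.0 and 116 ± 5.36 for PC-3p and 108 ± 14.6, 104 ± 20.0 and 123 ± 7.01 for PC-5p. PC signals took 9.18% to 13.3% of all signal reads in a library, and PC-3p 58.7% to 71.2% of the PC reads.

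**Figure D3:**
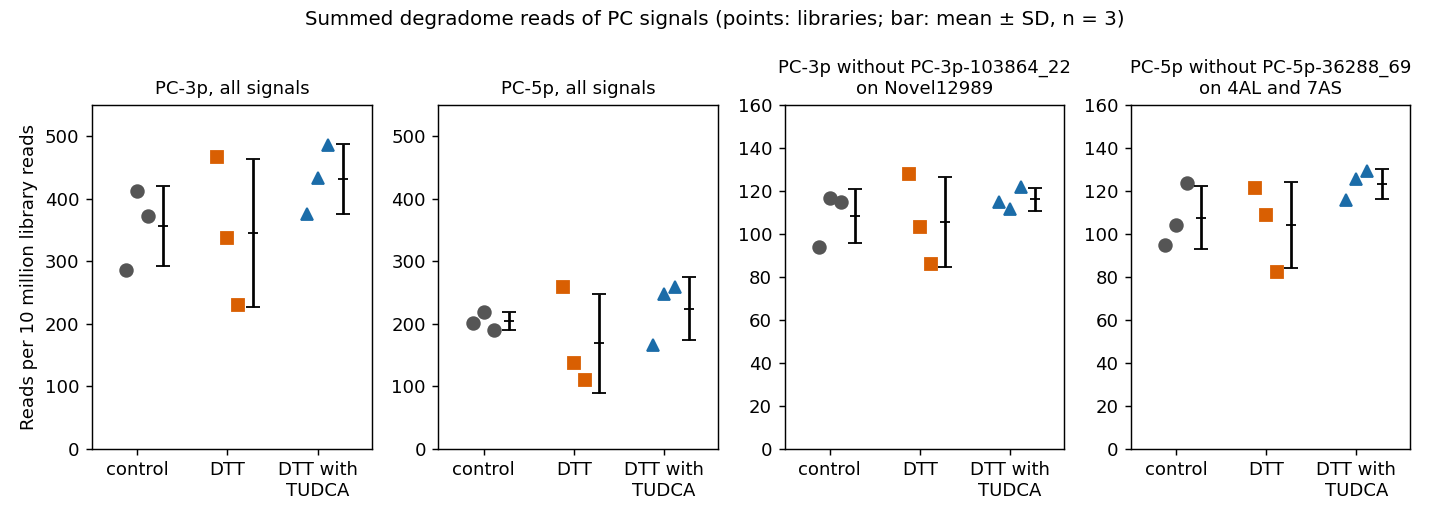
Summed reads per 10M library reads of PC-3p and PC-5p signals, with all signals (left pair of panels) and without the strongest signal of each class (right pair, on a smaller vertical scale). Points are the 3 libraries of each treatment and bars the mean and SD; the treatments overlap in every panel and DTT has the widest spread.

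More PC signals were seen in the libraries with TUDCA. The control libraries held 95, 91 and 95 PC signals with at least 1 read, the DTT libraries 109, 94 and 86, and the DTT with TUDCA libraries 111, 110 and 117. Every DTT with TUDCA library lay above every library of the other treatments, at 112.7 ± 3.79 against 93.7 ± 2.31 and 96.3 ± 11.7 (mean ± SD, n = 3). Signals of all small RNAs were ordered in the same way, with 1163 to 1242 per control library, 1117 to 1435 in DTT and 1414 to 1578 in DTT with TUDCA, except that DTT replicate 1 overlapped the last group. Depth ran from 11253643 to 12548651 reads in the control libraries, from 12525611 to 12895432 in DTT and from 12544241 to 13006162 in DTT with TUDCA, and its part in these numbers was not tested. Over whole treatments, 77 signals were seen in all 3, 68 in the control alone, 69 in DTT alone and 84 in DTT with TUDCA alone. The 221 signals of a single treatment had at most 5 reads each.

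Signal by signal, 16 PC signals were deep enough to be tested in at least 1 comparison, 7 PC-3p and 9 PC-5p, and 12 were tested in all 3. Each pair of comparisons shares 1 group of libraries, so they are not independent. Signals were tested with edgeR's quasi-likelihood test over all signals that passed the filter on low counts, with Benjamini-Hochberg adjusted p-values and a threshold of 0.05.

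DTT was compared with the control to ask which degradome signals differ under the stress treatment. No PC signal passed the test (0 of 13 tested), against 5 of 156 tested signals in all, or 3.21%. None of the 13 (0) had an unadjusted p under 0.05 in edgeR, against 26 of the 156 (16.7%), and DESeq2 and limma also called 0. The groups overlapped in each of the 13 PC signals, that is 0 without overlap against 21.8% of all tested signals. Of the 13 log2 differences, 2 were above and 11 below 0, with a median of -0.38. Over all 156 signals, 70 were above and 86 below 0, with a median of -0.08. The 13 come from the same libraries and are not independent. The 7 tested PC-5p signals were all below 0 (median -0.62), and the 6 PC-3p signals had a median of -0.13. Of these 7, 2 were signals of the same small RNA, PC-5p-10064_224. Most of the 7 had only 1 DTT library at the minimum count of 5, so the filter kept them mainly through their control libraries. PC-5p-10739_211, with 38 reads in DTT against 9 in the control, was left out by the same filter. The shared sign is thus in part set by the filter and is no result about the class. Summed PC-5p reads per 10M were 202, 219 and 190 in the control libraries against 259, 137 and 110 in DTT. Replicates 2 and 3 of DTT, not replicate 1, lay below the controls. Without the strongest signal, PC-5p-36288_69, the sums were 94.8, 104 and 124 in the control and 121, 109 and 82.2 in DTT. Only DTT replicate 3 then lay below the controls.

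PC-3p-177130_11 on Novel06054 had the lowest p of the 13 PC signals in that comparison. It had 2, 16 and 16 reads in the control, 4, 8 and 2 in DTT, and 0, 2 and 1 in DTT with TUDCA, and 50 of its 51 reads were listed on Novel12830 too. Control replicate 1 lay within the range of the DTT libraries and far below the other controls. The log2 difference of DTT from the control was -1.34 (SE 0.78, edgeR adjusted p = 0.353). PC-5p-36288_69 differed by -0.58 (SE 0.46, adjusted p = 0.565 in edgeR), and without DTT replicate 1, its high library, by -1.78 with an edgeR adjusted p of 0.00624, so that leaving out 1 library made the call, and over all alternatives the adjusted p ranged from 0.00624 to 0.939. The strongest signal, PC-3p-103864_22 on Novel12989, differed by -0.06 (SE 0.56, edgeR adjusted p = 0.962).

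**Figure D4:**
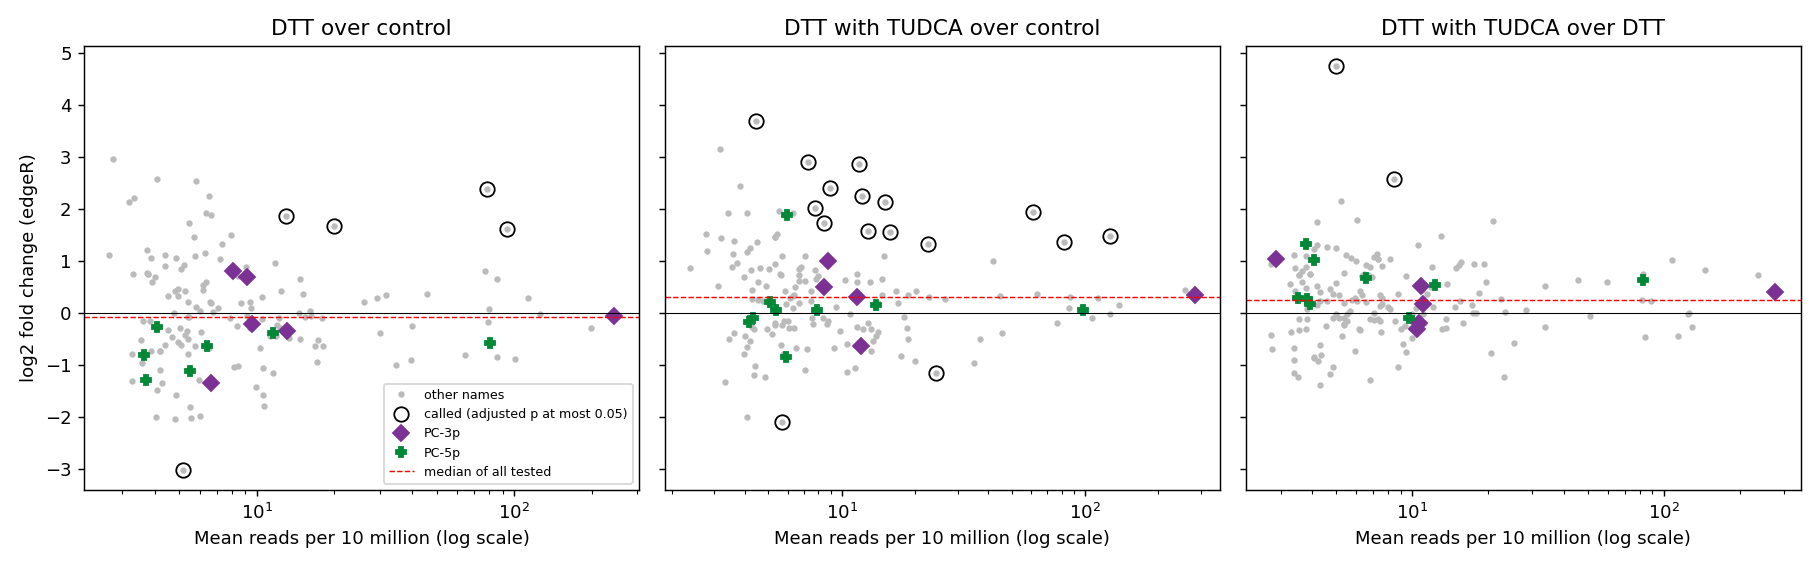
Log2 difference between treatments (vertical axis, edgeR) against the mean reads per 10M library reads (log scale) of every tested signal in the 3 comparisons, with PC-3p and PC-5p signals coloured, other names in grey, called signals ringed and the median of all tested signals dashed. No PC signal is ringed in any panel, and all 7 tested PC-5p signals lie below 0 in DTT over control.

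The combined treatment was then set against the control, and here 2 of the 14 tested PC signals had groups that did not overlap, though neither passed the test. No PC signal passed (0 of 14), against 16 of 166 tested signals, or 9.64%. DESeq2 and limma called 0 of the PC signals as well. Both signals with an unadjusted p under 0.05 in edgeR (2 of 14, against 33 of 166 signals, or 19.9%) were those tested signals without overlap, against 22.9% of all tested signals. The median log2 difference was 0.11 over the PC signals and 0.30 over all 166.

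The first of them was PC-5p-10739_211 on Traes_5BS_9384D46B3, whose reads all had a divisor of 1. It had 4, 3 and 2 reads in the control, 9, 26 and 3 in DTT, and 15, 7 and 14 in DTT with TUDCA. All libraries with TUDCA were above all controls, and of the DTT libraries 2 were above them and 1 within their range. Its level was 2.46 ± 0.706 reads per 10M for the control and 9.42 ± 3.51 with both agents, a log2 difference of 1.88 (SE 0.66, edgeR adjusted p = 0.0568), or 1.58 above the median of all tested signals. No control library reached the minimum count of 5, so the signal passed the filter only through the libraries with both agents, where it was high. Its p and lack of overlap are thus no independent support for a difference. Where lines were merged at a tolerance of 5% in place of 20%, the adjusted p in edgeR was 0.0294, and with every listed line tested 0.0326, while over all alternatives it ranged from 0.0294 to 0.521. In DTT the reads summed to 38 against 9 in the control, a ratio of 4.02 with a counting interval from 1.91 to 9.45, but DTT replicate 2 held 26 of them and the signal did not pass the filter in that comparison.

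The second was PC-3p-4224_513 on Novel15671, with nearly the same reads on Novel06867 and Novel08166. It had 5, 10 and 6 reads in the control, 12, 19 and 8 in DTT, and 14, 19 and 12 in DTT with TUDCA. Libraries with TUDCA were all above the controls, and the DTT libraries overlapped both. Its level was 5.80 ± 2.09 for the control and 11.7 ± 2.61 with both agents, a log2 difference of 1.00 (SE 0.50, edgeR adjusted p = 0.247), or 0.70 above that median. The 3 transcripts are those that also carry PC-3p-742312_2, with separate reads.

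PC-3p-177130_11 on Novel06054 had its reads mostly in the control, with 34 in those libraries together and 3 in those with DTT and TUDCA. This is a ratio of 12.02 of control over DTT with TUDCA, with a counting interval from 3.78 to 61.2 that covers counting error only. The levels were 9.58 ± 6.95 for the control and 0.778 ± 0.769 with both agents. Control replicate 1 and DTT with TUDCA replicate 2 had 2 reads each, which are 1.59 and 1.54 reads per 10M, so the groups were only just apart. The filter on low counts left the signal out of this comparison. With no filter the log2 difference was -3.45 with an edgeR adjusted p of 0.0310, and in 1 fit of all 3 treatments -3.45 with 0.0131, while without DTT with TUDCA replicate 3 it was 0.0976, the highest among the alternatives that tested it. Fits without control replicate 2 or 3, its high libraries, did not test it.

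**Figure D5:**
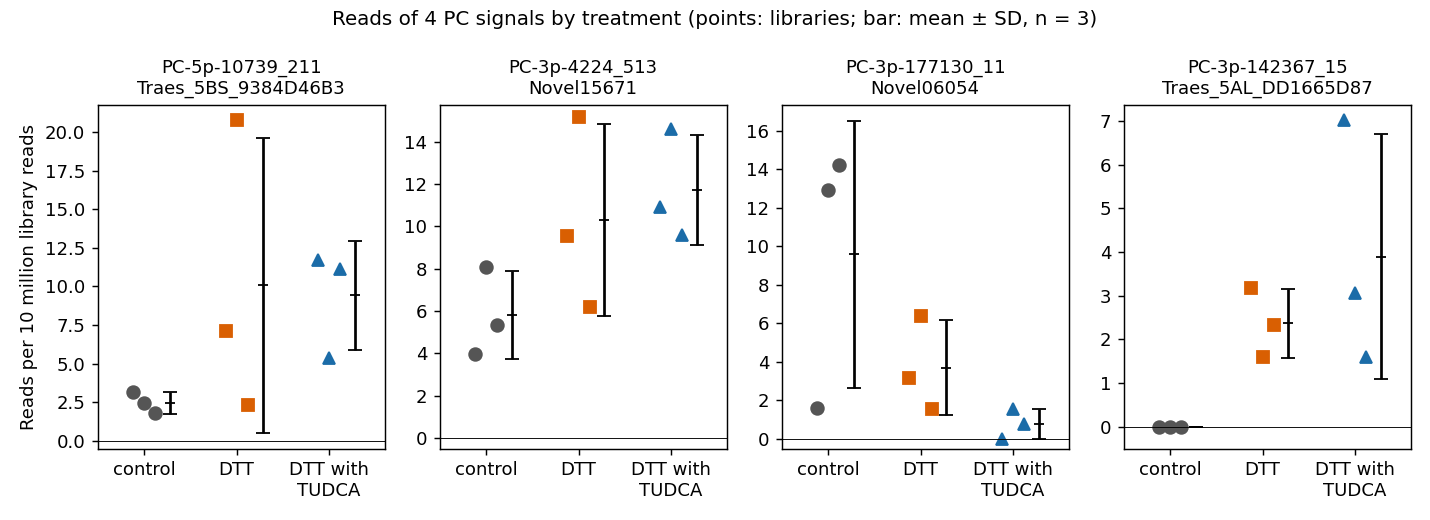
Reads per 10M library reads of 4 PC signals in each library (points) by treatment, with the group mean and SD (bar). PC-5p-10739_211 and PC-3p-4224_513 had all DTT with TUDCA libraries above the controls, PC-3p-177130_11 had its highest values in 2 of the 3 control libraries, and PC-3p-142367_15 had no reads in the control.

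DTT with TUDCA was also compared with DTT, which asks what TUDCA alters under DTT. No PC signal passed (0 of 15), against 2 of 187 tested signals, or 1.07%. None of the 15 (0) had an unadjusted p under 0.05 in edgeR, against 13 of the 187 (6.95%), and DESeq2 and limma called 0. PC-5p-177515_11 on Novel10501 was the 1 tested PC signal whose groups did not overlap, against 15.5% of all tested signals. Its level was 10.02 ± 2.13 for DTT and 14.6 ± 2.22 with TUDCA added, a log2 difference of 0.54 (SE 0.46, edgeR adjusted p = 0.791). The control, at 13.0 ± 3.60, overlapped both. The median log2 difference was 0.40 over the PC signals and 0.26 over all 187.

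PC signals with at least 10 reads and none in 1 or 2 treatments were few, and each had 0 reads in the control. The same count was not made for signals of other names, so whether this is particular to PC names was not tested. PC-3p-142367_15 on a transcript each of 5AL, 5BL and 5DL had 0, 0 and 0 reads in the control, 4, 2 and 3 in DTT, and 9, 4 and 2 in DTT with TUDCA. All 6 treated libraries had reads and no control library did. Set against a floor of 3 counts over the control group, its depth-scaled pooled reads were 2.85-fold the floor in DTT and 4.71-fold in DTT with TUDCA. These ratios cover no spread between libraries, and the signal was picked for its absence from a treatment. The filter left it out of both comparisons with the control, and with no filter the edgeR adjusted p was 0.512 and 0.293.

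The other two signals rested on 1 library each. PC-5p-142287_15 on Novel11193 had 1, 9 and 1 reads in DTT, 3, 0 and 0 in DTT with TUDCA, and 0 in the control libraries. Its depth-scaled pooled reads in DTT were 3.49-fold the same floor. PC-5p-97535_24 had 13 reads on transcripts of 1AL, 1BL and 1DL, of which 11 lay in DTT replicate 1, with 1 in DTT replicate 3, 1 in DTT with TUDCA replicate 2 and 0 elsewhere. With no filter neither passed in DTT against the control (edgeR adjusted p = 0.512 for both). The remaining PC signals, 363, 362 and 361 in the 3 comparisons, were left untested by the filter on low counts.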

How the data were processed

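The authors' deposited tables, 3 in number, give, per small RNA and transcript, raw degradome read counts of each library, a normalized read number (an expected count, equal to raw reads over a divisor), a depth-scaled signal per library (TPB) and a log2 fold change, per the file headers. No aligner, target caller or genome build is given in the sources used here. Per the labels' protocols, libraries were made from about 20 µg of total RNA with RIN above 7.0 and 150 ng of poly(A)+ RNA, and the first 36 nt were read from 1 end. GEO lists 1 sample for each treatment, and the 3 columns of a treatment are taken as the replicates that the series design states.

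Raw counts were used. Library reads were recovered from the ratio of the deposited signal to the normalized number. Of 12453 pairs, 3 listed more than once were left out (0 of them PC). Lines sharing a small RNA or a transcript were merged by their absolute count differences, summed over the libraries. That sum had to be at most 20% of the larger line's total, and lines could also join through another line. PC signals kept the counts of their PC line with most reads. Tests used edgeR 4.0.16 in R 4.3.3 on the 2 treatments compared, library reads as library size, filterByExpr (minimum count 5, minimum total 10), and Benjamini-Hochberg adjustment over all tested signals. SEs were derived from the F statistic. DESeq2 1.42.0, limma 3.58.1, other scalings, filters and mergings, and fits without each library were alternatives. The tests were checked on simulated data. Intervals and floors (3 counts per group) cover counting error only, since reads had no molecular identifiers. No p was computed over sums of PC signals. Named were the 15 PC signals with most reads, those called, the 5 of lowest p per comparison among tested signals whose groups do not overlap, the 5 small RNAs with most transcripts, and signals of 10 reads or more that were absent in 1 or 2 treatments or shared with another name. Others were named after their values were seen. The PC small RNAs, lists and rules were chosen with earlier results of these data known.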

Additional observations from a re-analysis of the deposited data

How the results depend on the processing

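In DTT with TUDCA against DTT, 0 PC signals passed under every alternative run. In DTT against the control the count of PC signals was 0 under all alternatives but 1, and ranged from 0 to 1 over the fits without 1 library; the 1 was PC-5p-36288_69 without DTT replicate 1. In DTT with TUDCA against the control it was 1 with no filter, 1 with 1 fit of all 3 treatments, 1 with lines merged at 5%, 1 with every listed line, and 0 to 1 over the fits without 1 library. There PC-3p-177130_11 passed without control replicate 1 (log2 -3.95, edgeR adjusted p = 0.000689), without DTT with TUDCA replicate 1 (-2.92, 0.0170) and without DTT with TUDCA replicate 2 (-4.28, 0.00838). Leaving out 1 library lowers the number of libraries the filter requires. The signal entered these fits only through control replicates 2 and 3, where it was high, and was not tested without either of them. These passes are thus no independent support for a difference. Under TMM, median centring, both DESeq2 fits and limma voom, 0 PC signals passed in each comparison. With the replicate number of the headers as a block, 0 PC signals passed in each comparison, and the number of all signals called was 1, 18 and 1. Over all alternatives that number ranged from 0 to 7 in DTT against the control (5 as reported), from 8 to 86 in DTT with TUDCA against the control (16, and 86 with every listed line) and from 0 to 3 against DTT (2). Deviations of same-numbered libraries correlated between -0.204 and 0.0617 over 9 pairs, within the range of differently numbered ones, -0.248 to 0.212. The check thus shows no pairing by number, but with few libraries and low counts it cannot exclude one. Among signals not called, 56 of 671 log2 differences changed sign under an alternative. PC reads per 10M in control, DTT and DTT with TUDCA were 803, 741 and 953 with every listed line counted, and 312, 274 and 340 without the strongest signal. Without 1 library at a time they ranged from 525 to 597, from 407 to 599.5 and from 610 to 712, an alternative chosen after seeing the data. TMM moved the median log2 difference of all tested signals from 0.30 to 0.09 in DTT with TUDCA against the control and from 0.26 to -0.01 against DTT. Depth limits the tests, since 253 of the 376 PC signals had 3 reads or fewer.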
